A study of Mus musculus with 8 samples.

Results

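Voltage-gated sodium and calcium channels were examined in mouse medulloblastomas with and without Cre-conditional deletion of Bcl2l1, which encodes BCL-xL, a protein that protects cells from apoptosis. The channel genes were all genes with a symbol of Scn followed by a number and a or b, or starting with Cacna, Cacnb or Cacng, that had a probe set naming that gene alone. For a gene with several such probe sets the one with the highest mean over the 8 arrays was used. This gave 36 of the 22180 genes measured, of which 32 were bright enough to be tested. Genes of these families without a probe set of their own are not analysed here. The tumours came from mice at postnatal day 15, 1 array per tumour, with 4 Bcl2l1-deleted tumours of Math1-Cre/SmoM2/Bcl2l1 f/f mice and 4 control tumours of Math1-Cre/SmoM2 mice. All the mice thus carried a Cre recombinase driven by the Math1 (Atoh1) promoter, active in granule neuron progenitors, and SmoM2, an activated form of the hedgehog pathway protein Smoothened. Bcl2l1 deletion is therefore limited to cells of the Math1 lineage, while the RNA came from whole tumour tissue, and in such bulk samples fewer cells of a type and less RNA per cell cannot be told apart. The mice stayed with their dams and received no agent. The values are log2 expression values made by the authors with RMA, and a level of one gene cannot be set against that of another gene, because their probes differ.

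Voltage-gated sodium channels open on depolarization and carry the rapid upstroke of the action potential. Each has a pore-forming alpha subunit, encoded by an Scn gene ending in a, and beta subunits that tune its gating and act as adhesion molecules. Voltage-gated calcium channels turn depolarization into calcium entry. Their pore subunits fall into L-type channels, which couple activity to gene expression and contraction, P/Q-, N- and R-type channels, which trigger transmitter release, and low-voltage-activated T-type channels, which support rhythmic and burst firing. The alpha2delta and beta subunits bring the pore to the membrane, and most of the gamma family regulate AMPA-type glutamate receptors and are known as TARPs. Classic mouse mutants with ataxia and seizures carry mutations of Cacna1a (tottering), Cacna2d2 (ducky), Cacnb4 (lethargic) and Cacng2 (stargazer).

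Markers of granule neuron progenitors, the cells in which Math1 is active, lay well above the filter on dim genes on every array, with a mean level of 9.84 to 9.99 on Bcl2l1-deleted arrays and 9.31 to 9.93 on control arrays, and 0 of 7 passed the test. Bcl2l1 itself was lower on every deleted array, at 5.46, 5.46, 5.69 and 5.32, against 6.88, 6.57, 6.93 and 6.98 in controls (log2 change -1.36 ± 0.16 SE, adjusted p = 0.00509 in limma). Control replicate 2 stood apart, with correlations of 0.881 to 0.925 with the other arrays, which correlated at 0.956 or more with each other. Its median level of 1394 olfactory and vomeronasal receptor genes, a measure of background, was 3.60, against 2.79 to 2.92 on deleted arrays and 2.94 to 3.09 on the other controls, and its interquartile range over genes was 2.40, against 3.59 to 3.66 and 3.29 to 3.50. Both measures separated the groups as a whole (exact permutation p = 0.0286 each, two-sided, the smallest that 4 against 4 arrays allow). The part of background and of this array in the channel results was not tested beyond the values given without it. The median tested gene had a log2 change of +0.17, and a relative change below is the fitted change minus this shift.

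The channel genes lay mostly lower in Bcl2l1-deleted tumours, and 3 of the 32 tested passed the test, all lower: the R-type calcium channel pore gene Cacna1e, the T-type pore gene Cacna1i and the alpha2delta subunit gene Cacna2d3. These are 9.38% of the tested channel genes, against 6.52% of all 15526 tested genes called in either direction, 1.60% called lower and 4.93% called higher. No channel gene was called higher by limma, and 0 were higher at an unadjusted p under 0.05, against 9 lower. Of all 15526 tested genes, 30.5% passed that limit in either direction, 1136 lower and 3594 higher. The fitted change was below 0 for 24 of 32 channel genes and for 32.6% of all tested genes. It was below that of the median gene for 29 of 32, with a median fitted change of -0.36, or -0.53 relative to the median gene. All 4 deleted arrays lay below all 4 control arrays for 2 channel genes, Cacna1e and Cacna1i, and above them for 0, while 4.46% of all tested genes were separated in this way downward and 19.0% upward, 23.4% in all.

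**Figure D1:**
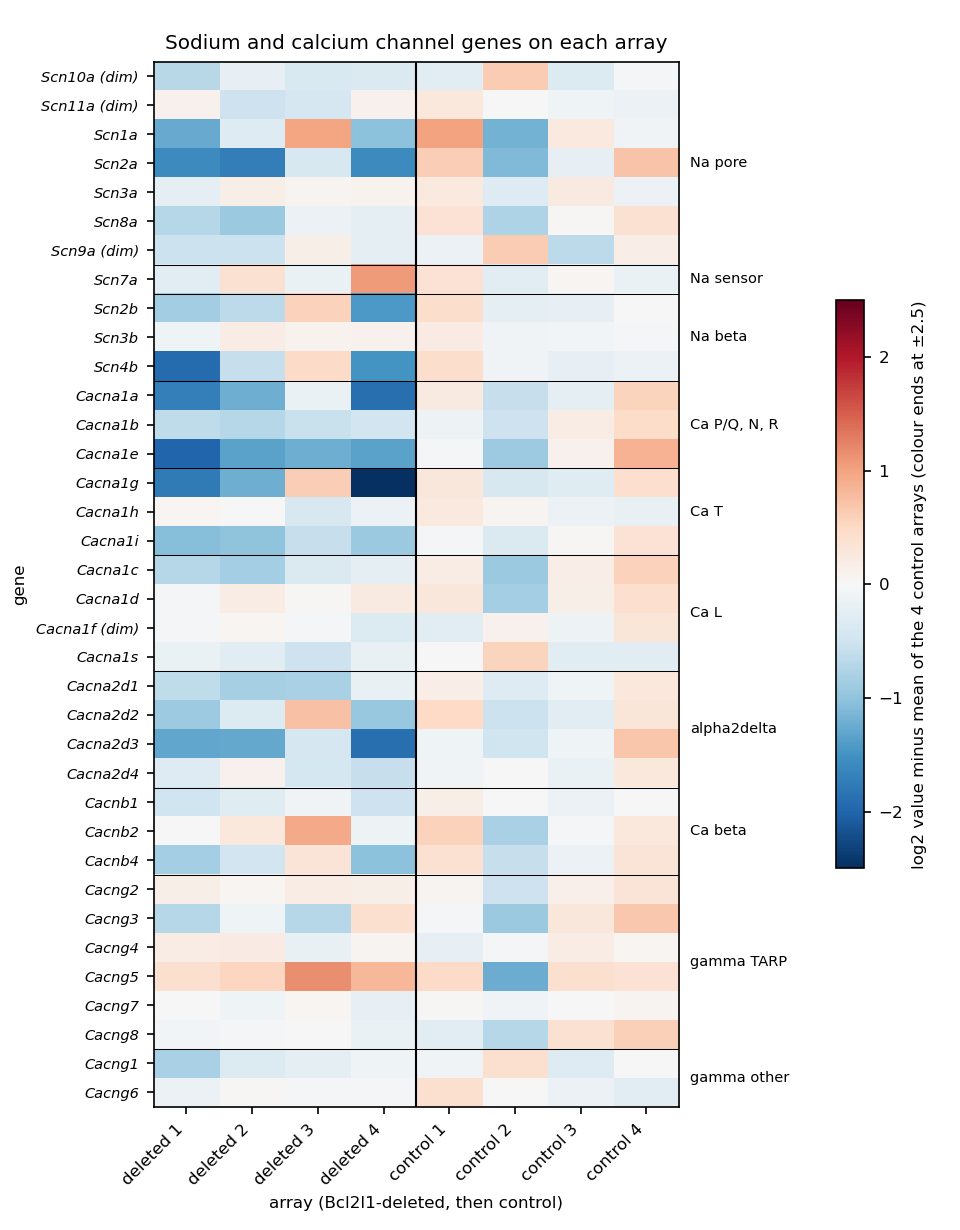
Each channel gene on each array, with genes in rows grouped by role and the 4 Bcl2l1-deleted arrays left of the 4 control arrays; colour gives the log2 value minus that gene's mean over the control arrays. The rows of the P/Q-, N- and R-type pore genes lie below the control mean (blue) on all 4 deleted arrays. For Cacna1a on deleted replicate 3 the gap is small, 8.10 against a control mean of 8.27. Deleted replicate 3 is the highest of its group in 18 of 32 tested genes.

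The count of calls depended on single arrays. Without control replicate 2, 9 channel genes were called lower, namely Cacna1a, Cacna1b, Cacna1c, Cacna1e, Cacna1i, Cacna2d1, Cacna2d3, Scn2a and Scn8a, when 4.46% of all tested genes were called lower. Without deleted replicate 3, 5 were called, namely Cacna1a, Cacna1g, Cacna1i, Cacna2d3 and Scn4b, when 1.26% of all tested genes were called lower. Without control replicate 1 the 3 calls were unchanged, when 2.48% of all tested genes were called lower. None of the channel genes was called without deleted replicate 1, 2 or 4 or without control replicate 3 or 4, settings in which 0.0258% to 0.670% of all tested genes were called lower. The plain linear model without moderation also called 0, when 0.0386% of all tested genes were called lower. The placement of the genes moved less than the calls, and 28 to 30 of 32 lay below the median gene whichever array was left out.

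**Figure D2:**
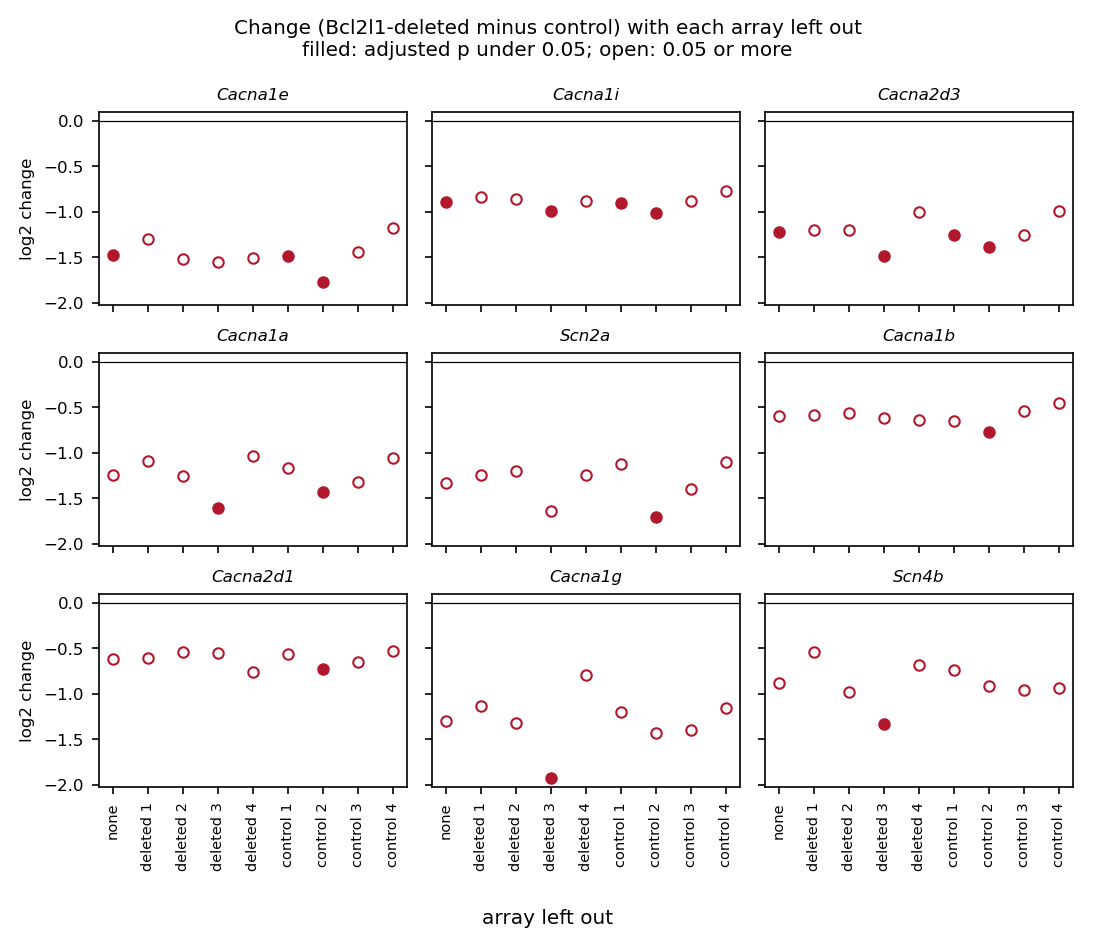
Log2 change, Bcl2l1-deleted minus control, with all 8 arrays and with each array left out in turn, with filled points where the adjusted p is under 0.05. Shown are the 3 called channel genes and Cacna1a, Scn2a, Cacna1b, Cacna2d1, Cacna1g and Scn4b. Cacnb1, whose p was smaller than that of Scn4b, is not shown. Cacna1e ranges from -1.77 to -1.18, Cacna1i from -1.01 to -0.77 and Cacna2d3 from -1.49 to -0.99, all below 0.

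Cacna1e, the pore of R-type channels found in dendrites and nerve terminals, was at 5.06, 5.69, 5.82 and 5.69 on Bcl2l1-deleted arrays, against 6.98, 6.13, 7.14 and 7.91 on control arrays. Every deleted array lay below every control array, and the lowest control was replicate 2. The fitted difference was -1.47 ± 0.32 (SE, n = 4 per group), 2.77-fold lower, with an adjusted p of 0.0316. Relative to the median gene it was -1.64. The call was lost without deleted replicate 1 (adjusted p = 0.111), 2 (0.0937), 3 (0.0512) or 4 (0.0674), and without control replicate 3 (0.0592) or 4 (0.0746), while the difference kept its sign in each.

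Cacna1i encodes a T-type pore with slow kinetics that is found mainly in brain. Its values were 4.33, 4.40, 4.81 and 4.47 on deleted arrays and 5.36, 5.04, 5.42 and 5.77 on control arrays. The groups did not overlap, and the difference was -0.89 ± 0.19 (SE), 1.86-fold lower, with an adjusted p of 0.0265. The deleted arrays lay close to the filter on dim genes, which was set at 4.38. The call was lost without deleted replicate 1 (adjusted p = 0.102), 2 (0.0985) or 4 (0.0676) and without control replicate 3 (0.0538) or 4 (0.0755).

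Cacna2d3 encodes an alpha2delta subunit, a protein that raises the number of calcium channels at the cell surface. It was at 6.54, 6.57, 7.42 and 5.95 on deleted arrays and at 7.74, 7.35, 7.73 and 8.54 on control arrays. Deleted replicate 3 lay above control replicate 2, so the groups overlapped by this one pair. The difference was -1.22 ± 0.32 (SE), 2.33-fold lower, with an adjusted p of 0.0470. The call was lost without deleted replicate 1 (adjusted p = 0.138), 2 (0.131) or 4 (0.114) and without control replicate 3 (0.0712) or 4 (0.114).

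The 250 bases before the RefSeq start of these 3 genes are given here because they are the promoters of the genes that passed the test. They are from GRCm38.p6, 5′ to 3′ on the strand of the gene, at chr1:154725921-154726170 (minus strand) for Cacna1e, chr15:80286988-80287237 (plus strand) for Cacna1i and chr14:29721865-29722114 (minus strand) for Cacna2d3. Capitals mark the motifs searched on both strands, an E-box (CAGCTG or CATCTG), the GC box bound by SP1 (GGGCGG) and a GLI-type site (GACCACCCA).
Cacna1e: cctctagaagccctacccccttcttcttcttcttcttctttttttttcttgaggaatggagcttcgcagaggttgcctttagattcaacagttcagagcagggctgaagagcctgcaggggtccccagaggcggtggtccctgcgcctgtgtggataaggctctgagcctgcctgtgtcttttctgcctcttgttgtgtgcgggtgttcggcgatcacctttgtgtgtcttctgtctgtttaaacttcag
Cacna1i: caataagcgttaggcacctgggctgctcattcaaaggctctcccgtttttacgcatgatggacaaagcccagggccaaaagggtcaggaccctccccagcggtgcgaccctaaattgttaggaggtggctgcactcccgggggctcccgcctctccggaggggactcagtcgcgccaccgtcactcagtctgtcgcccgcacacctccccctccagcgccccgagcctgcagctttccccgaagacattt
Cacna2d3: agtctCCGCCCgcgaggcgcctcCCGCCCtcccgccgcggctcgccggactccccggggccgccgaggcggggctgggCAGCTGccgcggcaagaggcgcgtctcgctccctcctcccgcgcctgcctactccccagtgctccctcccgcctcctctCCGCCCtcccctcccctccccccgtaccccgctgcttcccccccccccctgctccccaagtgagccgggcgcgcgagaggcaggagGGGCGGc
The Cacna2d3 window held 1 CAGCTG and 4 GC boxes and was 80.0% G or C, while those of Cacna1e (52.0%) and Cacna1i (62.4%) held none of these letters. Windows were found for 28 of the 36 channel genes, 38 windows in all. CAGCTG was in 11 of the 38, against 13.0% of all 32851 windows, GGGCGG in 14 against 32.7%, CATCTG in 4 against 14.4%, and GACCACCCA in 1, that of Cacnb4, against 0.225%. A match describes the letters only.

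The other release-triggering pore genes had fitted changes below 0 and did not pass the test. Cacna1a, the P/Q-type pore that carries most calcium current of Purkinje cells, was at 6.56, 7.05, 8.10 and 6.39 on deleted arrays, against 8.50, 7.70, 8.05 and 8.83 on control arrays. Its difference was -1.24 ± 0.36 (SE), 95% interval -2.04 to -0.44, with an adjusted p of 0.0625. Deleted replicate 3 reached the control range, and the others lay below it. Without that array the difference was -1.60 (adjusted p = 0.0226), and without control replicate 2 it was -1.43 (0.0372).

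Cacna1b, the N-type pore blocked by omega-conotoxin, was at 7.49, 7.41, 7.57 and 7.66 on deleted arrays and at 7.9997, 7.62, 8.32 and 8.59 on control arrays. Only control replicate 2 reached into the deleted range. The difference was -0.60 ± 0.20 (SE) with an adjusted p of 0.0883, and without control replicate 2 it was -0.77 (adjusted p = 0.0149).

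T-type pore genes other than Cacna1i differed in spread. Cacna1g, which is strong in Purkinje cells and the deep nuclei, was at 5.60, 6.15, 7.98 and 4.58 on deleted arrays and at 7.65, 6.98, 7.07 and 7.79 on control arrays. The deleted tumours thus spanned 3.40 log2 units and the controls 0.81, with deleted replicate 3 above all controls and replicate 4 far below. The difference was -1.29 ± 0.56 (SE) with an adjusted p of 0.152, and without deleted replicate 3 it was -1.93 (0.0261). Cacna1h, another T-type pore, differed by -0.12 (95% interval -0.49 to 0.24).

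The L-type pore genes were not called. Cacna1d, the neuronal and endocrine L-type pore, was at 6.88, 7.09, 6.94 and 7.13 on deleted arrays, inside the control values of 7.19, 6.04, 7.05 and 7.32 (difference 0.11, 95% interval -0.45 to 0.67). Cacna1c, the L-type pore of heart and brain, averaged 6.56 on deleted and 7.10 on control arrays (-0.54, adjusted p = 0.236), and without control replicate 2 the difference was -0.85 (adjusted p = 0.0199). Cacna1s, the skeletal muscle pore, averaged 4.63 and 4.92, and Cacna1f, the retinal pore, averaged 4.21 and 4.31 and was too dim to be tested. Of 4 skeletal muscle markers, Ckm and Myh4 were too dim to be tested, and Acta1 and Tnnt3 were tested and not called. The mean of the 4 was 4.37 to 4.73 on deleted and 4.56 to 5.06 on control arrays. Both measured photoreceptor and pineal markers were too dim to be tested. In all, 2 of the 9 tested calcium pore genes were called lower, 8 had a fitted change below 0 and 9 lay below the median gene.

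**Figure D3:**
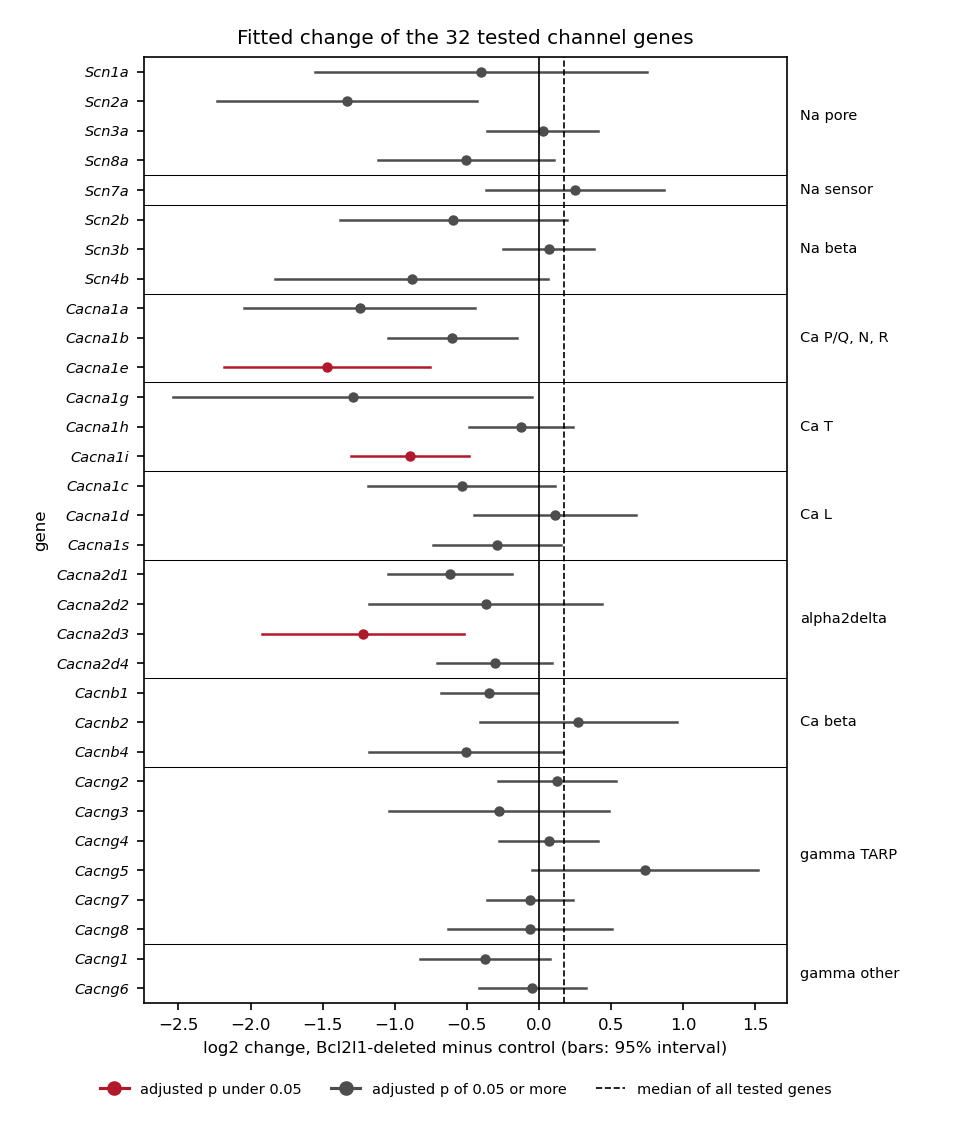
Log2 change, Bcl2l1-deleted minus control, of each tested channel gene with its 95% interval from limma, grouped by role; red points passed an adjusted p of 0.05 and the dashed line is the median of all tested genes (+0.17). The 3 red points are Cacna1e, Cacna1i and Cacna2d3 and all lie below 0.

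All 4 alpha2delta genes had a fitted change below 0, and only Cacna2d3 was called. Cacna2d1, the widely expressed subunit and main gabapentin target, was at 8.53, 8.33, 8.35 and 8.98 on deleted arrays and at 9.33, 8.85, 9.06 and 9.42 on control arrays. The groups overlapped by one pair, deleted replicate 4 and control replicate 2, and the difference was -0.62 ± 0.19 (SE) with an adjusted p of 0.0765. Without control replicate 2 it was -0.72 (adjusted p = 0.0304). Cacna2d2, the ducky gene, which is strong in Purkinje cells, was at 6.10, 6.66, 7.75 and 6.06 on deleted arrays and at 7.51, 6.48, 6.73 and 7.32 on control arrays, and deleted replicate 3 was the highest of all 8. Its difference was -0.37 (adjusted p = 0.493), and that of Cacna2d4, known from retina, was -0.31 (0.258).

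Of the beta subunits, which hold the calcium channel pore in its active form, none passed the test. Cacnb1, the beta subunit of skeletal muscle that is also made in brain, was at 6.24, 6.44, 6.65 and 6.23 on deleted arrays and at 6.89, 6.73, 6.60 and 6.73 on control arrays (difference -0.35 ± 0.15 SE, adjusted p = 0.157). Cacnb4, the lethargic gene and a main beta subunit of the cerebellum, was at 6.31, 6.67, 7.48 and 6.13 on deleted arrays and at 7.54, 6.58, 7.01 and 7.48 on control arrays (-0.51, adjusted p = 0.271). A second, dimmer probe set of Cacnb4 differed by -0.09. Cacnb2 differed by 0.27 by its brighter probe set (95% interval -0.41 to 0.96) and by -0.05 by the other, a low one.

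None of the 8 tested sodium channel genes passed the test, and 7 lay below the median gene. Scn2a, a pore of axons that in the cerebellum serves granule cell fibres, was at 5.20, 5.07, 6.39 and 5.21 on deleted arrays and at 7.41, 5.69, 6.60 and 7.50 on control arrays. Deleted replicate 3 lay in the control range and the other deleted arrays lay below it. The difference was -1.33 ± 0.41 (SE), 95% interval -2.23 to -0.43, with an adjusted p of 0.0711, and without control replicate 2 it was -1.70 (adjusted p = 0.0161). Scn8a, the pore of nodes and axon initial segments that lets Purkinje cells fire repetitively, was at 6.85, 6.63, 7.42 and 7.31 on deleted arrays and at 7.93, 6.78, 7.59 and 7.94 on control arrays. Its difference was -0.51 ± 0.28 (SE) with an adjusted p of 0.231, and without control replicate 2 it was -0.77 (0.0372).

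Scn3a, a pore gene of the embryonic brain, stood at nearly the same level in both groups. It was at 5.42, 5.79, 5.70 and 5.73 on deleted arrays and at 5.87, 5.31, 5.87 and 5.49 on control arrays (difference 0.03, 95% interval -0.36 to 0.41). Scn1a, the pore gene of inhibitory neurons that is mutated in Dravet syndrome, was at 3.70, 4.65, 5.96 and 3.93 on deleted arrays and at 5.97, 3.79, 5.22 and 4.88 on control arrays, a spread too wide for a call (-0.40, adjusted p = 0.606). Scn9a, Scn10a and Scn11a, pore genes of peripheral sensory neurons, were too dim to be tested, with means of 4.08, 3.70 and 3.97 on deleted arrays and 4.37, 4.11 and 4.15 on control arrays. Scn7a, a relative that senses sodium and is expressed in glia, was at 4.35, 5.01, 4.45 and 5.69 on deleted arrays and at 4.99, 4.37, 4.68 and 4.47 on control arrays (0.25, adjusted p = 0.553).

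Of the sodium channel beta subunits, Scn4b, which enables resurgent current in Purkinje cells, was at 3.57, 4.92, 5.97 and 4.00 on deleted arrays and at 5.94, 5.41, 5.28 and 5.35 on control arrays. Deleted replicate 3 was the highest of all 8 arrays and the other deleted arrays lay below every control. The difference was -0.88 ± 0.43 (SE) with an adjusted p of 0.188, and without deleted replicate 3 it was -1.33 (0.0491). Scn2b, which is linked to the pore by a disulfide bond, was at 5.17, 5.37, 6.61 and 4.61 on deleted arrays, with replicate 3 again the highest of them, against 6.48, 5.78, 5.82 and 6.05 on control arrays (-0.59, adjusted p = 0.273). Scn3b, a non-covalently bound beta subunit expressed early in brain, was at 6.70, 6.99, 6.91 and 6.91 on deleted arrays and at 7.02, 6.73, 6.74 and 6.76 on control arrays, a difference of 0.07 (95% interval -0.25 to 0.38).

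**Figure D4:**
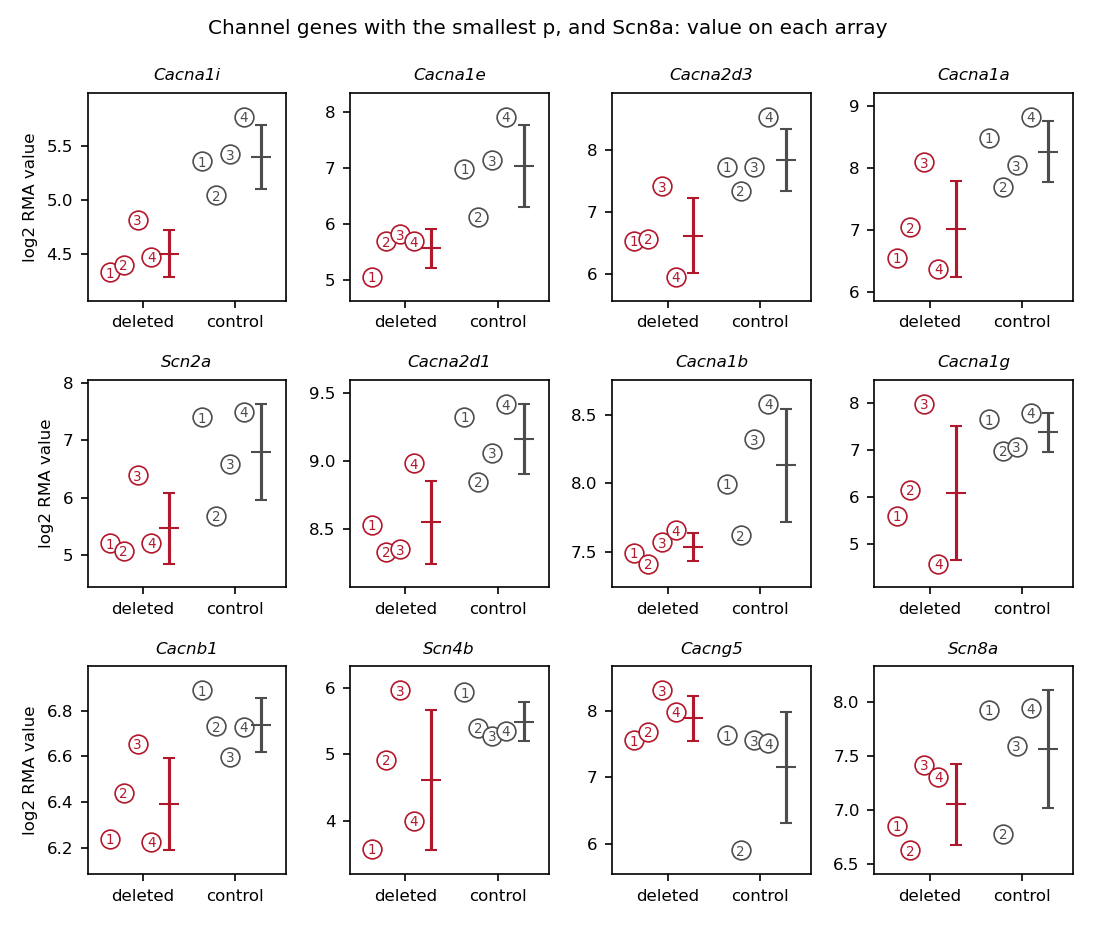
Log2 RMA values on each array of the channel genes with the smallest p and of Scn8a, with circled replicate numbers, Bcl2l1-deleted left of control, and bars for the mean ± SD of 4 arrays. Cacna1i and Cacna1e show no overlap, deleted replicate 3 lies at or near the control level for Cacna1a, Cacna1g and Scn4b, and control replicate 2 is the lowest value of Cacng5.

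None of the 8 tested genes of the gamma family was called, and their median fitted change was -0.06, against -0.51 for the 24 other tested channel genes, a difference that was not tested. Cacng7, a TARP, was at 10.92, 10.80, 10.97 and 10.72 on deleted arrays and at 10.95, 10.83, 10.91 and 10.97 on control arrays (difference -0.06, 95% interval -0.36 to 0.24). Cacng2 (stargazin), which brings AMPA receptors to cerebellar granule cell synapses, averaged 9.45 on deleted and 9.32 on control arrays (0.12, 95% interval -0.28 to 0.53). Cacng4, a TARP of developing neurons and glia, averaged 9.63 and 9.57, and Cacng8, mainly known from hippocampus, 6.67 and 6.73.

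Cacng5, a TARP reported in Bergmann glia, was the channel gene with the largest positive difference. It was at 7.56, 7.68, 8.31 and 7.99 on deleted arrays and at 7.63, 5.90, 7.55 and 7.51 on control arrays (0.73 ± 0.36 SE, adjusted p = 0.188), and the groups overlapped. Without control replicate 2 the difference was 0.32, short of the threshold as well. Cacng3, a TARP of cortex, differed by -0.28 (adjusted p = 0.593). Cacng6, a gamma subunit that is no TARP, was at 4.55, 4.74, 4.68 and 4.65 on deleted arrays and at 5.11, 4.70, 4.57 and 4.45 on control arrays, and Cacng1, the gamma subunit of skeletal muscle, averaged 4.31 and 4.68 (-0.38, adjusted p = 0.234).

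Some channel genes lie side by side in the genome. Among the 32 tested channel genes, 12 pairs had at most 4 protein-coding genes between them in the RefSeq order of GRCm38.p6. Channel genes too dim to be tested were left out of the pairs. The pairs were chosen after values were seen. The difference between neighbours on each array was compared by an exact permutation test. A lone pair at the smallest exact p that 4 against 4 arrays allow, 0.0286, has an adjusted p of 0.343 over the 12, so the design could hardly give a call and the values are a description. Scn2a and its direct neighbour Scn3a had log2 changes of -1.33 and 0.03 (difference -1.36, exact p = 0.0571). Cacng1 and Cacng5, with 1 gene between them, had changes of -0.38 and 0.73 (difference -1.11, exact p = 0.0286). Cacng1 minus Cacng5 ran from -3.86 to -3.34 on deleted arrays and from -3.19 to -0.82 on control arrays. The value of -0.82 was that of control replicate 2. Cacng1 averaged 4.31 on deleted arrays, near the filter on dim genes at 4.38. Cacng7 and Cacng8, direct neighbours, had changes of -0.06 each.

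Neuron markers were read on the same arrays. Of 10 markers of differentiating granule neurons, 8 were called lower, and the mean level of the list was 6.02, 6.32, 7.08 and 5.57 on deleted arrays, against 8.12, 7.40, 7.77 and 8.29 on control arrays. The 4 measured Purkinje cell markers had 0 calls, with mean levels of 7.50, 9.08, 10.63 and 5.96 on deleted arrays and 10.23, 9.51, 9.06 and 9.71 on control arrays. Deleted replicate 3 was highest and replicate 4 lowest of the deleted tumours for the Purkinje list, as for Cacna1g. The same highest and lowest deleted arrays were seen for the granule neuron, inhibitory interneuron, unipolar brush cell and myelinating oligodendrocyte lists. They were also seen for the astrocyte and Bergmann glia list and the microglia list, so this order was not particular to Purkinje markers. Inhibitory interneuron markers ranged from 4.61 to 6.59 on deleted and from 5.71 to 6.48 on control arrays, with 1 of 5 tested genes lower and again deleted replicate 3 the highest. Deleted replicate 3 was the highest of its group for 18 of the 32 channel genes, against 26.1% of all tested genes, and control replicate 2 the lowest of its group for 24 of 32, against 61.8%. The part of these neurons in the channel differences was not tested.

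**Figure D5:**
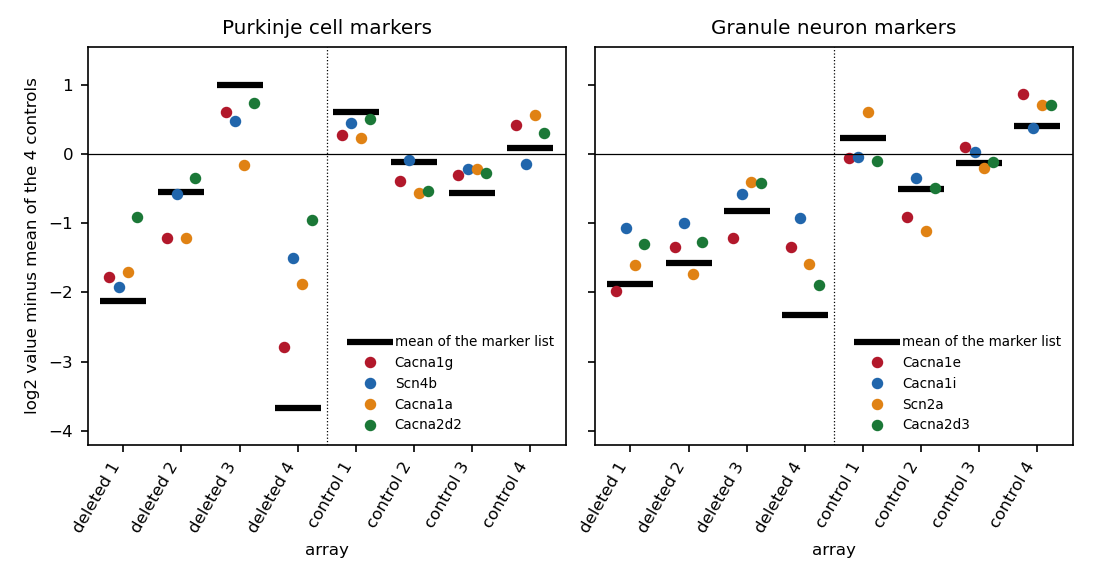
Log2 value minus the mean of the 4 control arrays, for the mean of the Purkinje cell markers (left) or granule neuron markers (right, black bars) and for 4 channel genes each (coloured points, chosen after the values were seen), with the 4 Bcl2l1-deleted arrays left of the controls. On deleted replicate 3 the Purkinje bar and Cacna1g, Scn4b and Cacna2d2 lie above the control mean, and on deleted replicate 4 all lie below it.

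Markers of other cell types were read as well. Myelinating oligodendrocyte markers averaged 5.64 to 7.26 on deleted and 7.03 to 8.44 on control arrays, with 2 of 7 called lower. Choroid plexus markers averaged 5.21 to 5.84 and 7.46 to 8.04, with 2 of 3 lower, and 1 of 2 unipolar brush cell markers was lower. Astrocyte and Bergmann glia markers averaged 8.88 to 9.45 on deleted and 8.09 to 9.16 on control arrays, with 2 of 6 called higher. Markers called higher were also 2 of 6 of oligodendrocyte precursors, 3 of 6 of microglia, 2 of 3 of endothelium and 2 of 4 of mural cells. Their part in the channel values was not tested.

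Proteins that anchor, modulate or act downstream of the channels were followed in a list of 33 partner genes, of which 28 were tested. Of these 28, 3 were called lower and 1 higher (7 lower and 1 higher without control replicate 2), 19 had a fitted change below 0, and the median fitted change was -0.19. Among all tested genes, 1.60% were called lower, 4.93% higher, and 32.6% had a fitted change below 0. Without control replicate 2, 4.46% of all tested genes were called lower. Rims1, the active zone protein that tethers calcium channels at release sites, was at 5.64, 5.83, 6.18 and 5.95 on deleted arrays and at 7.01, 6.53, 6.78 and 7.33 on control arrays. The groups did not overlap (-1.02 ± 0.20 SE, adjusted p = 0.0216). Unc13a, which primes synaptic vesicles for calcium-triggered release, was at 7.78, 7.80, 7.87 and 7.89 on deleted arrays and at 8.52, 8.12, 8.83 and 9.03 on control arrays (-0.79, adjusted p = 0.0414).

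Ank2, an ankyrin that anchors channels to the membrane skeleton, was at 8.93, 9.29, 9.02 and 9.24 on deleted arrays and at 9.76, 9.54, 9.77 and 10.30 on control arrays (-0.72, adjusted p = 0.0457). Rrad, a small GTPase that binds beta subunits and inhibits calcium channels, was the partner called higher, at 7.35, 6.86, 6.82 and 7.28 on deleted arrays, against 6.57, 5.10, 6.16 and 5.81 on control arrays (+1.17, adjusted p = 0.0393). The groups did not overlap for any of these 4 genes. Of the 28 tested partners, 4 were separated downward and 1 upward, 17.9% in all. Among all tested genes 4.46% were separated downward and 19.0% upward, 23.4% in all. The partner separated downward without a call was Rims3 (adjusted p = 0.0730). The call of Rims1 was lost without deleted replicate 1, 2 or 4 or control replicate 4 (adjusted p between 0.0555 and 0.0920). Those of Unc13a (0.0752 to 0.129), Ank2 (0.0681 to 0.145) and Rrad (0.0575 to 0.129) were lost without any one of the 4 deleted arrays or control replicate 3 or 4. The sign was kept in each.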

How the data were processed

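Total RNA was labelled with a biotin kit for Affymetrix whole-transcript arrays, per the labels. The deposited values are log2 RMA expression values made by the authors with Partek's gene expression workflow, per the labels. The sources used here name no version, options or genome build. RMA compresses differences near background. Groups were read from titles and checked against the genotypes, while a field on Bcl2l1 status reads deleted for the controls too and was not used. The series' design text speaks of replicate animals, and no batch is given.

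Of 41345 probe sets, 23521 carried 1 gene symbol, 1814 several and 16010 none in the platform annotation, and 23328 of the single ones matched the RefSeq table of GRCm38.p6 by Entrez identifier, with 0 symbols changed. This gave 22180 genes, of which 15526 with a mean above 4.38, the 30th percentile, were tested and 6654 were not. Differences, Bcl2l1-deleted minus control, came from lmFit and eBayes of limma 3.58.1 (R 4.3.3) with no covariate. Two-sided p-values were adjusted by Benjamini-Hochberg over the 15526 genes, with a threshold of 0.05, and every adjusted p of a gene is from such a fit. The fit was tested on simulated data. Measures with 1 value an array were compared by exact permutation of the arrays.

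The channel genes, partner genes and marker lists were chosen with earlier results of these data known. Values on every array are given for channel genes past the threshold, the 8 with the next smallest p and the highest-mean gene of each role, and for partners past the threshold; other channel genes were given this way after their values were seen. Both groups use replicate numbers 1 to 4, and no label says that a number pairs animals. Alternatives were other filters on dim genes, other variance models, median centring, quantile normalization, array weights, a block for the replicate number, covariates (Xist level or receptor median), another probe set per gene, and leaving out each array. Promoter windows are credited to RefSeq, GRCm38.p6.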

Additional observations from a re-analysis of the deposited data

Results flagged for a closer look

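The highest or lowest of the 4 values of a group lay far from the other 3, against the spread of the group, in 4 of the 72 groups of values examined, and chance marks about 1 in 20 such groups. Cacna1e was 5.06 on Bcl2l1-deleted replicate 1, with the other deleted arrays at 5.69 to 5.82. Scn2a was 6.39 on Bcl2l1-deleted replicate 3, with the others at 5.07 to 5.21. Cacng5 was 5.90 on control replicate 2, with the other controls at 7.51 to 7.63. Scn3b was 7.02 on control replicate 1, with the other controls at 6.73 to 6.76.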

How the results depend on the processing

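The 3 channel genes called lower became 0 with the plain linear model or the Xist level as a covariate, 1 with centring on all probe sets, 5 with quantile normalization, 7 with centring on the tested genes, 8 with the receptor median as a covariate and 9 with array weights. Of all 15526 tested genes, 6 were called lower with the plain linear model, 52 with Xist and 171 with centring on all probe sets. The count was 283 with quantile normalization, 699 with centring on the tested genes, 404 with the receptor median and 1052 with array weights. When an array was left out, 0 to 9 channel genes were called lower, against 4 to 693 of all tested genes. The replicate block left 2 channel genes called, losing Cacna2d3 (adjusted p = 0.0738), against 150 of all tested genes. Deviations of same-numbered arrays from their group means correlated at -0.135 to 0.0526. With 4 arrays per group this cannot decide whether a number pairs animals, and no label says that it does. No channel gene was called higher in any setting. Over all settings Cacna1e, Cacna1i and Cacna2d3 kept their sign. They were called in 14 of 22, 12 of 21 and 12 of 22 alternatives, with adjusted p from 0.00157 to 0.123, 0.00169 to 0.102 and 0.00770 to 0.147. Cacna1i was too dim to be tested under the 50th percentile filter. The median channel gene lay 0.37 to 0.62 below the median gene in every setting.

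Partners called lower (3) became 1 without the dim filter, with centring on all probe sets or with the replicate block, 0 with the plain linear model or Xist, 7 with centring on the tested genes and 10 with array weights, and 0 to 7 with an array left out. The partner called higher was not called (0) without the dim filter, with the plain linear model, quantile normalization, Xist or the receptor median, and 0 to 1 were called with an array left out. Of all genes, 248 were called lower, against 159 without the dim filter, 160 at the 50th percentile, 6 with the plain linear model, 699 with centring on the tested genes, 1052 with array weights, 150 with the replicate block, 52 with Xist, 404 with the receptor median and 4 to 693 with an array left out. The 765 called higher became 389 without the dim filter, 37 with the plain linear model, 1337 with centring on all probe sets, 390 with centring on the tested genes, 2442 with array weights, 358 with the replicate block, 148 with Xist, 273 with the receptor median and 16 to 1610 with an array left out. The causes were not tested.

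Only uncalled channel genes changed sign. With the receptor median as a covariate the log2 changes were Cacng5 -0.0703, Cacna1s 0.0567, Cacnb2 -0.32, Cacng2 -0.17, Scn3b -0.0105, Cacna1d -0.39 and Scn3a -0.21. With centring on the tested genes they were Scn7a -0.0098, Cacng2 -0.13, Scn3b -0.19, Cacna1d -0.15, Cacng4 -0.19 and Scn3a -0.23. With quantile normalization they were Cacng2 -0.0056, Scn3b -0.0457, Cacng4 -0.0459 and Cacng6 0.16, and with array weights Cacng2 -0.0429, Cacna1d -0.11, Cacng6 0.0155 and Scn3a -0.0808. With centring on all probe sets they were Cacna1h 0.0475, Cacng7 0.11, Cacng6 0.12 and Cacng8 0.11, and with Xist Scn3a -0.0277. With an array left out, Scn7a ranged from -0.0230 to 0.42, Cacng2 from -0.0478 to 0.23, Cacna1d from -0.18 to 0.25, Cacng4 from -0.0031 to 0.15, Cacng6 from -0.14 to 0.0862, Cacng8 from -0.30 to 0.13 and Scn3a from -0.0826 to 0.11. Dim probe sets near 4.38 limit what a further fall can show, and 4 arrays per group limit the rest.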
